A study of Triticum aestivum with 8 samples.

Results

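A set of 22 oligonucleotide probes, among the 37826 non-control probes of a wheat array, gave a far brighter signal in leaf than in crown before and after long cold. The probes were chosen by their measured levels. A level is the log2 processed signal of a probe minus the 75th percentile of its array, so that 0 is the level of a fairly bright probe on that array. Each of the 22 was flagged well above background on all 8 arrays, was higher in leaf than in crown by at least 6 log2 units at 24 °C and again at 4 °C, and had group means at the 2 temperatures that lay within 1 log2 unit of each other in each tissue. The tissue differences and cold changes given below are therefore the values that chose the probes, and they are given as a description. Counts of members called by the fit over all probes stand beside the share of all probes called, and nothing is read from them. Overlap between the arrays of the 2 temperatures is given probe by probe as a description. Its share over all probes was not counted, and nothing is read from it. The set makes up 0.0582% of the probes.

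The plants were a synthetic hexaploid wheat line, a bread wheat type rebuilt by crossing its wild and cultivated progenitors. The controls were leaf and crown of seedlings grown at 24 °C for 3 weeks. The cold groups were leaf after a further 12 weeks at 4 °C and crown after a further 6 weeks at 4 °C, so that the cold plants were also older and the 2 tissues had different lengths of cold. Each of the 4 groups had 2 arrays, described by the submitters as independent experiments and hybridised with Cy3-labelled RNA, 1 sample per array.

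The leaf blade is the main photosynthetic organ of a wheat plant. The crown is the short stem base at the soil surface that holds the shoot apical meristem, from which new leaves, tillers and later the ear are formed, and its survival decides whether a winter cereal lives through frost. Growth at low, non-freezing temperature brings about cold acclimation, in which many genes of both organs change their transcript levels, and in winter types vernalization of the apex. Bulk RNA of an organ does not tell a smaller number of cells of a type from less RNA per cell, and this holds for each level given here.

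The leaf samples were labelled as first leaf, and the crown samples as shoots that contain the shoot apical meristem. The free-text description of both crown controls speaks of leaves, against their title, source and tissue labels. Over the 24596 probes well above background on all 8 arrays, the correlation of the crown controls was r = 0.915 to 0.919 against cold crown and r = 0.774 to 0.776 against control leaf. These values describe agreement across probes of shared arrays and are not tested. The tissues could not be checked by marker genes, because 0 of 11 leaf photosynthesis markers and 0 of 7 crown and meristem markers matched a probe name in the files. The files name the 22 probes by assembled contig, cDNA clone or sequence identifier, and 0 of the 22 names were found in the reference gene table used here. The probes are therefore given by name only, with no gene, function or genome position.

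Between 72.1% and 85.6% of the probes of an array were well above background, with the lowest share in leaf at 24 °C and the highest in crown at 4 °C. The 8 arrays lay on 5 slides, were scanned on 4 days and on 2 scanners, and no scan day held more than 1 group. The leaf controls alone had been read on the first scanner, and they shared no slide with another group. They lay on different slides, while both arrays of each other group shared 1 slide, so the spread within those groups is that within a slide. Group and scan day can thus not be told apart in any difference described here. The version of the scanner software also differed between control and cold in both tissues, and between the 2 control groups. The lowest level still well above background was -6.35 to -6.04 on the control arrays and -8.47 to -7.89 on the cold arrays. The part of the software version in these values was not tested.

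In leaf, the group means of the 22 probes ran from 1.07 to 7.38 at 24 °C, with a median of 3.92, and from 0.95 to 6.59 at 4 °C, with a median of 3.50. In crown they ran from -5.57 to -1.38 at 24 °C, with a median of -4.50, and from -5.92 to -0.86 at 4 °C, with a median of -4.18. A difference of at least 6 in effect fixed that the leaf arrays of each probe lay above its crown arrays. The narrowest gap, between the lowest leaf array and the highest crown array, was 5.32 log2 units (MUGEST2003_23lib_Contig5398_228), and the widest was 11.15 (whsh_allContig1137). Leaf minus crown had a median of 7.55 at 24 °C, with a range of 6.18 to 12.22, and a median of 7.89 at 4 °C, with a range of 6.11 to 11.43. All 22 were called higher in leaf at both temperatures, at an adjusted p below 0.05 in the fit over all probes, where 85.4% of the probes tested were called at 24 °C (41.1% higher and 44.3% lower in leaf) and 85.3% at 4 °C (37.9% higher and 47.3% lower). The rule fixed this outcome, and nothing is read from it.

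The largest tissue difference belonged to whsh_allContig1137. Its levels were 7.43 and 7.32 in leaf at 24 °C, 6.44 and 6.54 in leaf at 4 °C, -4.71 and -4.96 in crown at 24 °C, and -4.89 and -4.98 in crown at 4 °C. All 4 leaf arrays were bright and all 4 crown arrays were dim, and the cold leaf arrays lay below the control leaf arrays. The mean was 7.38 ± 0.08 (SD, n = 2) in leaf and -4.84 ± 0.18 (SD, n = 2) in crown at 24 °C, a ratio of 4759.6-fold, and the ratio at 4 °C was 2749.9-fold. At 4 °C its difference of 11.43 log2 units was the largest in the leaf direction among the 24596 probes above background on all arrays.

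MUGEST2003_23lib_Contig20709_594 came next. It read 6.11 and 6.03 in leaf at 24 °C, 5.64 and 5.62 in leaf at 4 °C, -5.62 and -5.51 in crown at 24 °C, and -4.70 and -4.69 in crown at 4 °C. Leaf was lower and crown higher in the cold, with no overlap between the temperatures in either tissue, and the ratio of leaf to crown went from 3193-fold at 24 °C to 1281-fold at 4 °C. These were the 2 probes with a difference over 10 log2 units at both temperatures.

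The same pattern, with smaller differences, was seen for whsh_allContig748 and rwhsd7b08_302. For whsh_allContig748 the levels were 5.67 and 5.80 in leaf at 24 °C, 5.03 and 5.14 in leaf at 4 °C, -5.01 and -4.78 in crown at 24 °C, and -4.07 and -3.83 in crown at 4 °C. Its tissue difference of 10.63 at 24 °C and 9.03 at 4 °C shrank by more than that of any other member, by 1.60 log2 units. For rwhsd7b08_302 they were 6.92 and 6.82 in leaf at 24 °C, 6.61 and 6.57 in leaf at 4 °C, -3.43 and -3.54 in crown at 24 °C, and -2.55 on both crown arrays at 4 °C. In each of the pair the arrays of the 2 temperatures did not overlap in either tissue, and crown lay closer to leaf in the cold. The ratio for rwhsd7b08_302 was 1306-fold at 24 °C and 563-fold at 4 °C.

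For whsh_allContig101 and MUGEST2003_23lib_Contig23931_901 the crown levels at the 2 temperatures overlapped. whsh_allContig101 gave 3.97 and 3.94 in leaf at 24 °C, 3.60 on both leaf arrays at 4 °C, -5.42 and -5.55 in crown at 24 °C, and -5.66 and -5.48 in crown at 4 °C. MUGEST2003_23lib_Contig23931_901 gave 4.31 and 4.32 in leaf at 24 °C, 3.70 and 3.75 in leaf at 4 °C, -5.16 and -5.58 in crown at 24 °C, and -5.24 and -5.14 in crown at 4 °C. In both, leaf was slightly lower in the cold and the crown arrays were too close to order. Their ratios of leaf to crown were 696-fold and 823-fold at 24 °C, and 576-fold and 481-fold at 4 °C.

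Among the probes with the 4 highest leaf levels, whsh_allContig854 was higher in the cold in both tissues. Its levels were 5.49 and 5.48 in leaf at 24 °C, 5.74 and 5.66 in leaf at 4 °C, -3.44 and -3.54 in crown at 24 °C, and -2.98 and -2.95 in crown at 4 °C. No arrays of the 2 temperatures overlapped in either tissue, and the ratio of leaf to crown was 505-fold at 24 °C and 406-fold at 4 °C. In all, 9 of the 22 probes had a tissue difference over 8 log2 units at both temperatures.

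At the lower end, the probe with the lowest leaf level was wheat0130Contig7521, at 1.13 and 1.01 in leaf at 24 °C, 0.93 and 0.96 in leaf at 4 °C, -5.28 and -4.95 in crown at 24 °C, and -5.93 and -5.85 in crown at 4 °C. Its leaf levels fell just apart and its crown arrays were lower in the cold, with ratios of 72.7-fold at 24 °C and 114-fold at 4 °C. The sequence identifier probe, ncbi_gi_32128933_1112, had the highest crown level of the set, at -1.40 and -1.36 at 24 °C and -0.86 and -0.87 at 4 °C, beside leaf levels of 5.31 and 5.35 at 24 °C and 5.45 and 5.47 at 4 °C. Both tissues were slightly higher in the cold, and the ratio was 104.8-fold at 24 °C and 80.2-fold at 4 °C.

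The smallest average difference belonged to whsh_allContig154, with 4.58 and 4.47 in leaf at 24 °C, 4.09 and 4.12 in leaf at 4 °C, -1.80 and -1.85 in crown at 24 °C, and -2.06 and -1.95 in crown at 4 °C. Its levels were lower in the cold in both tissues, and its ratios were 81.5-fold and 69.0-fold. The 7 members outside the rule for named probes were whsh_allContig1050, rwhsh14h19, whf1k22, MUGEST2003_23lib_Contig4185_439, whsh_allContig635, wheat0130Contig2991 and wheat0130Contig2852. Their leaf minus crown difference ran from 7.27 to 9.38 log2 units at 24 °C and from 6.41 to 8.64 at 4 °C, and leaf and crown arrays did not overlap for any of them.

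Of these 7, rwhsh14h19, whsh_allContig635 and wheat0130Contig2852 had lower leaf levels and higher crown levels at 4 °C. For rwhsh14h19 leaf read 3.93 and 3.82 at 24 °C and 3.35 and 3.05 at 4 °C, and crown -5.04 and -5.15 at 24 °C and -4.55 and -4.52 at 4 °C. For whsh_allContig635 leaf read 2.78 and 2.68 at 24 °C and 2.55 and 2.59 at 4 °C, and crown -4.80 and -4.79 at 24 °C and -4.02 and -3.96 at 4 °C. The temperatures did not overlap in either tissue for this pair, and the crown change of whsh_allContig635, 0.81, was larger in size than its leaf change, -0.15. In wheat0130Contig2852 leaf read 3.83 and 3.68 at 24 °C and 3.45 and 3.34 at 4 °C, and crown -3.66 and -3.77 at 24 °C and -3.05 and -2.99 at 4 °C, again without overlap.

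MUGEST2003_23lib_Contig4185_439, whf1k22 and wheat0130Contig2991 were lower at 4 °C in both tissues. The leaf levels of MUGEST2003_23lib_Contig4185_439 were 3.32 and 3.39 at 24 °C and 2.64 and 2.75 at 4 °C, and its crown levels -4.25 and -4.21 at 24 °C and -4.96 and -4.88 at 4 °C. Leaf changed by -0.66 and crown by -0.69, so that its tissue difference was 7.59 at 24 °C and 7.62 at 4 °C, the closest pair of values in the set. The leaf levels of whf1k22 were 2.98 and 2.87 at 24 °C and 2.82 on both arrays at 4 °C, and its crown levels -4.42 and -4.69 at 24 °C and -5.20 and -5.24 at 4 °C. The leaf levels of wheat0130Contig2991 were 3.28 and 3.15 at 24 °C and 2.54 and 2.60 at 4 °C, and its crown levels -3.99 and -4.12 at 24 °C and -4.21 and -4.27 at 4 °C. Crown moved more than leaf in whf1k22, by -0.67 against -0.10, and leaf more than crown in wheat0130Contig2991, by -0.64 against -0.18.

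The last, whsh_allContig1050, was higher at 4 °C in both tissues by its group means, with leaf at 4.41 and 4.28 at 24 °C and 4.80 and 4.25 at 4 °C, and crown at -5.05 and -5.02 at 24 °C and -4.10 and -4.14 at 4 °C. Its crown arrays separated by temperature, while its leaf arrays overlapped, since the 2 cold leaf arrays lay further apart than those of any other member.

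Some probes lay close to the limit of 6 log2 units. Just inside at 24 °C were wheat0130Contig7521 at 6.18 and MUGEST2003_23lib_Contig11390_539 at 6.31, and just outside were MUGEST2003_23lib_Contig3729_493 and rwhkp19k10_254, both at 5.90. At 4 °C, whsh_allContig154 at 6.11 and MUGEST2003_23lib_Contig5398_228 at 6.27 lay inside, and whsh_allContig250 at 5.86 and whsh_allContig663 at 5.64 outside. Each of these lay nearer to the limit than the widest gap between 2 replicates of a member, which was -0.55.

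Across the 22 probes the tissue difference at 24 °C went with that at 4 °C, with Pearson's r = 0.910 and Spearman's rho = 0.839. The rule let neither tissue move by more than 1 log2 unit, which made a close relation nearly certain. Nothing is read from it. The leaf level, with an SD of 1.52 over the members, varied more than the crown level, with an SD of 1.18, and the 2 levels were weakly related at r = 0.326 and rho = 0.214. The tissue difference correlated with the leaf level at r = 0.715 and with the crown level at r = -0.428. These are descriptions over 22 points that share the 8 arrays, and the tissue difference contains both levels.

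The crown signals lay near the lower end of what the arrays measured. At 24 °C the processed signals of the 22 probes ran from 22.4 to 427 on the crown arrays, and the lowest member level was 0.47 and 0.50 log2 units above the dimmest probe still well above background. At 4 °C the crown signals ran from 30.7 to 1051, and the same distance was 2.51 and 2.49. The mean of every one of the 22 probes in both crown groups lay above -6.04, the highest such limit on any array. At 24 °C the demand for a background flag on all arrays nearly fixed this, as the lowest flagged levels on the crown arrays were -6.09 and -6.08. Nothing is read from it. In leaf, signals ran from 2245 to 228912.5, no spot of the set was saturated, and between 8 and 11 of the 22 spots on a leaf array were flagged as scaled up from a scan at low detector gain, against 0 on each crown array. Over all probes, 964 to 1390 spots on a leaf array and 1111 to 1877 on a crown array carried this flag. The part of this flag in the tissue differences was not tested. Signal divided by the error that the scanner software assigned had a lowest value of 4.73 for crown at 24 °C and 8.90 for crown at 4 °C, and was higher than both for every leaf spot.

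In the cold, the probes moved little, as the rule required. The leaf change, 4 °C minus 24 °C, ran from -0.96 to 0.61 log2 units with a median of -0.32, and was negative for 15 and positive for 7 of the 22. The median over all 24596 probes above background on all arrays was -0.12, with 13576 negative and 11020 positive. In crown the change ran from -0.90 to 0.95 with a median of 0.13, beside 0.12 over all, and was negative for 10 and positive for 12. Over all 24596 probes it was negative for 11084 and positive for 13512. Across the 22 probes the leaf and crown changes gave r = 0.049 and rho = 0.045. The rule held both changes within 1 log2 unit, and the 22 points share the 8 arrays, so nothing is read from these values. Both tissues were lower in the cold for 8 probes, both higher for 5, leaf lower and crown higher for 7, and leaf higher and crown lower for 2. The shares of these patterns over all probes were not counted, and nothing is read from these counts.

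At an adjusted p below 0.05 with no minimum fold, 12 of the 22 probes were called lower in leaf and 4 higher, where 41.7% and 34.7% of the probes tested were called in these directions, and 76.3% in all. In crown, 6 were called lower and 10 higher, where 31.6% and 43.0% of the probes tested were called, and 74.6% in all. The rule used both changes, so these counts describe the members and support nothing. A requirement of 2-fold left 0 calls in either tissue, since the rule allowed no larger change. The direction of these small changes depended on how the arrays were scaled. In leaf, the calls split into 5 higher and 7 lower with scaling to the median, 8 and 4 with quantile normalization, 8 and 6 with quantile normalization after normexp background correction, and 6 and 2 with scaling to spike-in controls. Nearer to the main split were 4 and 12 with cyclic loess, 5 and 12 with the authors' table, and 3 and 10 with normexp and the 75th percentile. In crown the calls split into 16 higher and 0 lower with the spike-ins and into 2 higher and 14 lower with normexp correction followed by the 75th percentile. The other scalings gave 9 to 10 higher and 5 to 8 lower in crown.

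The most positive leaf change was that of whfl1b11, with 3.74 and 3.72 at 24 °C and 4.36 and 4.32 at 4 °C. Its crown levels went the other way, from -4.37 and -4.51 to -4.97 and -5.17. Neither tissue overlapped between the temperatures, and its ratio of leaf to crown was 288-fold at 24 °C and 681-fold at 4 °C. It stood between wheat0130Contig11934, at a leaf change of 1.30 just outside the window, and MUGEST2003_23lib_Contig11390_539, the next member, at 0.37.

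MUGEST2003_23lib_Contig11390_539 read 2.36 and 2.26 in leaf at 24 °C, 2.74 and 2.63 in leaf at 4 °C, -3.94 and -4.05 in crown at 24 °C, and -3.98 and -3.87 in crown at 4 °C. Leaf was higher in the cold with no overlap, while the crown arrays of the 2 temperatures overlapped. Its ratio of leaf to crown was 79.2-fold at 24 °C and 97.7-fold at 4 °C.

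The most negative leaf change was that of MUGEST2003_23lib_Contig5398_228, with 4.03 and 4.14 at 24 °C and 3.16 and 3.10 at 4 °C, and its crown levels were also lower, at -2.23 and -2.34 at 24 °C and -3.23 and -3.06 at 4 °C. With -0.96 in leaf and -0.86 in crown, both tissues were lower in the cold by similar amounts, and its ratio of leaf to crown was 82.7-fold at 24 °C and 77.2-fold at 4 °C. The leaf change of whsh_allContig1137, at -0.89, was the next. Just outside the window were MUGEST2003_23lib_Contig6672_52 at -1.08 and whsh_allContig442 at -1.41.

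In crown, rwhsh18e08_2 had the most negative change. Its levels were -4.93 and -5.12 at 24 °C and -5.95 and -5.89 at 4 °C in crown, and 2.12 and 2.08 at 24 °C and 1.99 and 2.26 at 4 °C in leaf. The crown arrays separated and the leaf arrays overlapped, so that the ratio of leaf to crown was 139.6-fold at 24 °C and 265-fold at 4 °C. The crown change of this probe was -0.90, while wheat0130Contig3557 at -1.15 and rwhvd1c01_204 at -1.45 lay just outside. The most positive crown changes were 0.95 for whsh_allContig748 and 0.93 for rwhsd7b08_302, and wheat0130Contig4864 at 1.01 and whfl_allContig854 at 1.03 were just too large.

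The tissue difference was smaller at 4 °C than at 24 °C for 16 of the 22 probes, with a median change of -0.35 beside -0.23 over all probes above background on all arrays. Over those 24596 probes the change of leaf minus crown was negative for 14232 and positive for 10364. Among the members it was called smaller for 12 and larger for 4, where 44.3% and 28.7% of the probes tested were called in these directions, and 73.0% in all. The calls split into 6 larger and 7 smaller with scaling to the median, 7 and 6 with quantile normalization with or without normexp, 1 and 17 with spike-ins, and 9 and 3 with normexp and the 75th percentile. They split into 5 and 13 with cyclic loess and 5 and 10 with the authors' table. The largest gains were 1.24 log2 units for whfl1b11 and 0.92 for rwhsh18e08_2, and the largest losses were 1.60 for whsh_allContig748 and 1.32 for MUGEST2003_23lib_Contig20709_594. Within 0.5 log2 units in both tissues were 4 of the 22 probes.

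The rule did not use other probes of the same name, and 3 members had such a probe on the array. They differ in name by the ending _2, whose meaning the files do not give, and they share the RNA samples and arrays of the members. All 3 were dim, and their crown signals were mostly not well above background. Where no crown array of a group measured a probe above background the fold is a lower bound, taken against the lowest signals well above background on those arrays. The adjusted p belongs to the fitted difference and not to the bound. The fit used the crown signals as read, also where they were not above background.

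whsh_allContig1137_2 read -3.66 and -3.48 in leaf at 24 °C, -5.42 and -4.91 in leaf at 4 °C, -6.55 and -7.28 in crown at 24 °C, and -7.64 and -8.14 in crown at 4 °C. It was well above background on 4 leaf arrays and on 1 crown array, at 4 °C, and the leaf arrays lay above the crown arrays. At 24 °C it was at least 5.73-fold higher in leaf, with a fitted difference of 3.34 log2 units (limma adjusted p = 0.00017). At 4 °C the measured levels differed by 2.72 log2 units, with 1 of the 2 crown arrays not well above background (limma adjusted p = 0.00042). In leaf it fell by 1.59 log2 units in the cold (limma adjusted p = 0.0057), outside the window that whsh_allContig1137 met.

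wheat0130Contig4025 paired with the member wheat0130Contig4025_2. The member had 2.47 and 2.57 in leaf at 24 °C, 2.70 and 2.81 in leaf at 4 °C, -4.30 and -4.21 in crown at 24 °C, and -3.83 and -3.79 in crown at 4 °C, and was slightly higher in the cold in both tissues. The other probe had -4.16 and -3.38 in leaf at 24 °C, -6.99 and -6.71 in leaf at 4 °C, -6.99 and -6.47 in crown at 24 °C, and -10.59 and -9.89 in crown at 4 °C. It was well above background on the 4 leaf arrays alone. Leaf exceeded crown within each temperature, by at least 4.99-fold at 24 °C and at least 2.98-fold at 4 °C. The fitted differences were 2.96 log2 units at 24 °C (limma adjusted p = 0.00055) and 3.38 at 4 °C (limma adjusted p = 0.00030). Unlike its partner its leaf level fell by 3.08 log2 units in the cold (limma adjusted p = 0.00067).

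The third, rwhsh18e08, passed the background flag on no arrays but the 2 of leaf at 4 °C. It read -7.18 and -7.13 there, against -9.74 and -8.81 in crown at 4 °C. It was at least 2.42-fold higher in leaf, with a fitted difference of 2.12 log2 units (limma adjusted p = 0.0014). At 24 °C no array measured it above background, and no comparison was made. All 3 probes were called higher in leaf at 4 °C, as were the 2 tested at 24 °C, where 37.9% and 41.1% of all probes tested were called higher in leaf. Each was admitted to the test by its leaf arrays, as no crown group was above background throughout. A call towards leaf was thus nearly fixed in advance, and nothing is read from these counts.

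Differences between the 2 arrays of a group were also not used by the rule. Replicate 2 minus replicate 1 had a median over the 22 probes of -0.09 in leaf at 24 °C, 0.01 in leaf at 4 °C, -0.11 in crown at 24 °C and 0.05 in crown at 4 °C. Over all 24596 probes the medians were -0.00056 in leaf at 24 °C, -0.01 in leaf at 4 °C, -0.01 in crown at 24 °C and -0.01 in crown at 4 °C. Replicate 2 was the lower for 16 of the 22 probes in leaf at 24 °C and for 14 in crown at 24 °C, and the higher for 12 in leaf and 15 in crown at 4 °C. Over all 24596 probes it was the lower for 12340 in leaf and 13851 in crown at 24 °C. It was the higher for 11129 in leaf and 10631 in crown at 4 °C. The median absolute difference of the members was 0.103 in leaf at 24 °C, 0.0576 in leaf at 4 °C, 0.114 in crown at 24 °C and 0.0635 in crown at 4 °C, beside 0.0858, 0.0764, 0.0680 and 0.0591 over all. The members' spread was thus the larger in both control groups and in cold crown, most in crown at 24 °C, and the smaller in cold leaf. The 62 probes that met both tissue limits but went beyond a cold window had 0.0760, 0.0586, 0.0963 and 0.0623 in the same order. A larger spread in crown was thus not particular to the members. Among the members the widest gaps were -0.55 for whsh_allContig1050 in leaf at 4 °C and -0.42 for MUGEST2003_23lib_Contig23931_901 in crown at 24 °C. Both were small beside tissue differences over 8.

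The names of the probes were not used by the rule either. The name classes were, however, chosen with earlier results of these data known, so their shares are a description and no test. Names that begin with whsh or rwhsh made up 9 of the 22 members, or 40.9%, against 1201 of the 37826 probes, or 3.18%, and 910 of the 24596 above background on all arrays, or 3.70%. They also made up 19, or 30.6%, of the 62 probes that met both tissue limits but went beyond a cold window. The 9 were whsh_allContig1137, whsh_allContig748, whsh_allContig101, whsh_allContig1050, whsh_allContig854, whsh_allContig635, whsh_allContig154, rwhsh14h19 and rwhsh18e08_2. The other 901 such probes above background on all arrays had a median leaf minus crown of 1.53 at 24 °C and 1.15 at 4 °C, and 72.6% and 69.5% of them were higher in leaf, beside 50.5% and 48.9% of all 24574 non-members above background on all arrays. Names of this kind, a class chosen with earlier results known, were thus more often higher in leaf also outside the members. The files do not say what whsh means. Names that begin with wheat0130Contig, the largest class by prefix at 36.9% of the array, made up 4 members or 18.2%. MUGEST2003 names made up 5 members or 22.7%, against 20.1% of the array.

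The set can be placed among its neighbours on the array. Of the 24596 probes above background on all arrays, 430 had leaf minus crown of at least 6 log2 units at 24 °C, 177 had it at 4 °C, and 84 at both. The 22 members were 26.2% of the 84, while 12180 of the 24596, or 49.5%, lay within both cold windows. Of the 62 left out, 14 went beyond the window in leaf alone, 23 in crown alone and 25 in both tissues. Leaf was lower by more than 1 in 36 of them and higher by more than 1 in 3, and crown was lower in 23 and higher in 25. Their median leaf change was -1.42, with 48 of the 62 negative, beside -0.32 for the members. Their median tissue difference was 8.39 at 24 °C and 6.97 at 4 °C, while that of the members was 7.55 and 7.89. Probe by probe, the change of this difference had a median of -1.39 in the 62 and -0.35 in the members. The cold windows divide the 2 lists, so these values describe them and nothing is read from the contrast. The 346 probes that met the limit at 24 °C alone were still higher in leaf at 4 °C in 338 cases, with leaf lower by more than 1 in 234 and crown higher by more than 1 in 290.

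The same rule with the tissues exchanged found 227 probes higher in crown by at least 6 log2 units at both temperatures, and 73 of them, or 32.2%, within both cold windows. Their median crown change was 0.58, with 62 of the 73 positive, and their median leaf change was -0.10. None of the 73 had a whsh or rwhsh name, and 45 of the 73 had a wheat0130Contig name.

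The mean pattern of the 22 probes was 4.08 in leaf at 24 °C, 3.82 in leaf at 4 °C, -4.22 in crown at 24 °C and -4.11 in crown at 4 °C. The 5 probes outside the set with group means nearest to it, by Euclidean distance over the 4 groups, were whfl_allContig854 at 0.99, whsh_allContig442 at 1.05, wheat0130Contig3557 at 1.12, wheat0130Contig5621 at 1.24 and whsh_allContig1122 at 1.48. All 5 met the tissue limits and went beyond a cold window. The members themselves lay at distances of 1.10 (whsh_allContig1050) to 4.78 (ncbi_gi_32128933_1112), so that 2 of the 5 lay nearer to the mean pattern than any member.

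The tissue differences kept their direction under every other processing tried, but their size did not. With normexp background correction and the 75th percentile the median leaf minus crown of the 22 probes was 6.54 at 24 °C and 6.74 at 4 °C, with a range of 4.45 to 10.75 at 24 °C. With scaling to spike-in controls it was 6.44 and 6.17, and the median crown change went from 0.13 to 1.12 as that of all probes above background on all arrays went from 0.12 to 1.11. Relative to that shift the members' median crown change was 0.01 log2 units, as with the 75th percentile. Both scalings subtract 1 value per array, so this equality holds by arithmetic. Stability in crown is thus stated relative to the rest of each array, and 4 of the 22 probes met the whole rule with the spike-ins, namely whsh_allContig101, whf1k22, whsh_allContig1137 and rwhsh18e08_2.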

How the data were processed

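The deposited scanner files hold, per the file headers, spot intensity from Agilent Feature Extraction, with version 10.5.1.1 in the cold leaf and cold crown files, 9.5.3.1 in the control leaf files and 10.7.3.1 in the control crown files, while 9.5 is the version in the submitters' processing notes. The other deposited columns used are flags per spot. The authors' table of 37826 rows, whose scaling is not given in the sources used here, served as an alternative. The 1417 control spots were left out.

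The processed signal, which the scanner software had corrected for background, was log2 transformed and reduced by the 75th percentile of its array. With limma 3.58.1 (R 4.3.3), 1 mean per group was fitted over the 8 arrays (4 residual and 1.40 prior degrees of freedom). Tested were probes flagged above background throughout 1 or more of the groups compared, with Benjamini-Hochberg adjustment over them, and called at an adjusted p below 0.05. The smallest two-sided p of an exact permutation test of 2 arrays against 2 is 0.333, so none was run. The fit was tested on simulated data. Tables were made with pandas 2.3.3.

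The members, name classes and marker lists were chosen with earlier results of these data known. Named were the members with the 6 largest tissue differences, the 4 highest and 2 lowest leaf levels, the 2 largest and 2 smallest cold changes in each tissue and changes of the tissue difference, those with a sequence identifier or another probe of the same name, and the 2 nearest to each limit on either side. This gave 15 members. The other 7 were named for a complete account, after their values were seen. The cold markers matched 6 of 8 names and the vernalization markers 0 of 3; they serve no result here. Precision is limited by the number of arrays. Alternatives were other scalings and normalizations, normexp (offset 50, on the median spot signal in place of the mean), filters, limits of the rule, each array left out, replicate and slide blocks, a 2-fold minimum and an intensity trend.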

Additional observations from a re-analysis of the deposited data

Results flagged for a closer look

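The change from 24 °C to 4 °C differed between leaf and crown for 16 of the 22 probes, by limma's interaction term at an adjusted p below 0.05, where 73.0% of all probes tested were called. The interaction is built from the contrasts that chose the probes, so the count describes them and is no independent evidence. The largest losses of the leaf excess were those of whsh_allContig748 (-1.60 log2) and MUGEST2003_23lib_Contig20709_594 (-1.32), and the largest gains those of whfl1b11 (1.24) and rwhsh18e08_2 (0.92). Leaf had 12 weeks and crown 6 weeks of cold, and group and scan day cannot be told apart.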

How the results depend on the processing

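The rule found 5 probes with spike-in scaling (4 of them members), 50 with a tissue limit of 5, 13 with 7 (all members), 4 with a cold window of 0.5 (all members) and 43 without the demand for detection in crown; normexp with quantile normalization found 31 and kept 14 members. Under the other scalings it found 19 to 30 probes and kept 16 to 22 members. Leaving out an array gave 21 to 25 probes and kept 21 to 22 members: MUGEST2003_23lib_Contig5398_228 was lost without replicate 1 of leaf at 24 °C, and whsh_allContig748 without replicate 2 of crown at 24 °C or replicate 1 of crown at 4 °C. Members called for a cold change were 8 in leaf with the spike-ins. With a 2-fold minimum they were 0 in leaf, 0 in crown and 6 for the change of the tissue difference. Without an array they were 14 to 16, 16 to 17 and 12 to 16. With the replicate block the member counts were 22 and 22 for the tissues, and 16, 16 and 16 for the cold changes and their difference. The block changed none of these member counts. Over all probes the calls for a leaf cold change went from 22591 to 22037. Same-numbered samples of different groups correlated at -0.0942 to 0.104 in their deviations, which cannot settle whether the numbers pair them. With slide as a random block (correlation -0.721) the cold counts were 18, 19 and 20. Both arrays of each group but the leaf controls shared 1 slide, so slide and group cannot be told apart there. Nothing is read from these counts.

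Called cold changes turned in sign for these members (log2). In leaf they were, with quantile normalization, whsh_allContig748 0.22, whsh_allContig1137 0.39, MUGEST2003_23lib_Contig20709_594 0.55 and rwhsd7b08_302 0.88; with normexp and quantile normalization, the same probes at 0.25, 0.40, 0.60 and 0.81, and whsh_allContig154 0.089; with spike-ins, whsh_allContig101 0.036, wheat0130Contig2852 0.035 and rwhsd7b08_302 0.11. In crown they were, with spike-ins, wheat0130Contig7521 0.22, whf1k22 0.33, MUGEST2003_23lib_Contig4185_439 0.31, MUGEST2003_23lib_Contig5398_228 0.14, whfl1b11 0.37 and rwhsh18e08_2 0.10; with normexp and the 75th percentile, wheat0130Contig4025_2 -0.25, whsh_allContig635 -0.20, MUGEST2003_23lib_Contig20709_594 -0.20, whsh_allContig854 -0.0084, rwhsh14h19 -0.32 and whsh_allContig1050 -0.031. The cause was not tested. No tissue difference of a member turned.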
